A study of Mus musculus with 8 samples.

Results

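Histones are the proteins around which DNA is wound in the nucleus. The replication-dependent histone genes lie in clusters, are read mainly during S phase when DNA is copied, and make messenger RNAs that usually end in a stem-loop in place of a poly(A) tail. The histone variant genes for the most part lie alone, are expressed through the whole cell cycle and make ordinary polyadenylated messenger RNAs. Activated T cells divide fast, and their histone messenger RNAs are therefore widely read as one of the marks of cells in S phase. The members described here were the genes whose symbols begin with Hist1h, Hist2h, Hist3h or Hist4h, taken as replication-dependent, or with H2af, H3f3 or H1f, taken as variants. This gave 85 genes of the 24426 in the table, of which 69 were replication-dependent and 16 were variants.

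Messenger RNA was sequenced from mouse Th17 cells, a class of T helper cell named for its cytokine interleukin 17, on the C57BL/6J background. The series holds 4 groups of 2 libraries. T cells were transduced with a vector for miR-96, or with the control vector. Untransduced T cells lacked miR-183C, the cluster of genes for miR-183, miR-96 and miR-182 (miR-183C-/-, called knockout here), or carried it (miR-183C+/+, wild type). All were cultured under the condition the labels call Th17(23) and harvested on day 4 to 5. The promoter that drives the vectors, whether the deletion was confined to some cells, the ages of the animals and the number of animals or cultures behind a library are not given in the sources used here, so p-values measure the spread between these libraries, which may be technical. The design text speaks of a sort for cells positive for green fluorescent protein, while the sample labels of both genotype groups say that the cells were not transduced. Poly(A) selection was part of library preparation, so of the replication-dependent transcripts mostly those with a poly(A) tail could be captured.

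The libraries held between 7142429 and 12452659 estimated counts. The microRNA gene Mir96 had 7 and 2 counts in the miR-96 libraries and 0 in the 6 others, while Mir182 and Mir183 had 0 in all 8, so the knockout could not be checked from this table. Knockout library 1 stood apart in that 56.4% of its detected genes had estimates that were not whole to within 0.02, against 6.25% to 7.41% in the other libraries. Xist, made from the inactive X chromosome, had 1080 and 166 CPM (counts scaled to library size) in the miR-96 libraries, 1220 and 1480 CPM in the control vector pair, 0 and 144 CPM in the knockout and 1220 and 390 CPM in wild type, and 4 Y-linked genes summed to at most 1.05 CPM in those with the control vector and to 111 CPM or more in every other one. The part of this difference in the histone results was not tested. T cell genes were at 2651 to 3357 CPM in sum in all libraries. Genes of B and plasma cells were at 78.7 and 91.8 CPM in the miR-96 libraries, 28.7 and 17.5 CPM with the control vector, 17.0 and 18.2 CPM in the knockout and 75.8 and 156 CPM in wild type.

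Of the 69 replication-dependent genes, 54 lie within 1 stretch of chromosome 13 (21715763 to 23934851, GRCm38), 10 in the Hist2 cluster of chromosome 3 (96219865 to 96270132), 2 in the Hist3 cluster of chromosome 11 and 1 (Hist4h4) on chromosome 6, the other two being the pseudogenes Hist1h2al and Hist3h2bb-ps. In the GENCODE annotation, 64 of the 69 had no intron in any transcript, against 8 of the 16 variants. The 3′ stem-loop, an inverted repeat closed by a loop of 4 bases, is what the stem-loop binding protein holds on to when the end of a replication-dependent histone messenger RNA is made. It was found in the annotated 3′ untranslated region of 46 of the 52 replication-dependent genes with such a region of at least 30 bases, in 1 of 12 variants (H2afx), and in 71 of 19335 other genes, or 0.367%. The stretches around it are shown for H2afx, which carries both kinds of ending, and for 5 replication-dependent genes of different classes, with the stem-loop in capitals (GRCm38, GENCODE M21, RNA strand written as DNA).
H2afx: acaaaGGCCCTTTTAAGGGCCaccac
Hist1h1c: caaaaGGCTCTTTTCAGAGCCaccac
Hist1h2ap: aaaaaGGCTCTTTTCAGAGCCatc
Hist1h2bj: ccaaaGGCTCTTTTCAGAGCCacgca
Hist1h3c: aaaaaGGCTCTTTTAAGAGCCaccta
Hist1h4n: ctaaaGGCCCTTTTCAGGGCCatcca

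Hist1h1c and Hist1h2bj shared the same 16 bases, which were also those of Hist1h2ap and the most common form, while Hist1h3c, Hist1h4n and H2afx had other forms. Annotated ends differed much more than the stem-loop. The transcript ended 3 bases after it in Hist1h2ap, 23 bases after it in Hist1h2bj and 31 bases after it in Hist1h4n, but ran on for 840 bases in Hist1h1c and 822 bases in H2afx. A polyadenylation signal stood within the last 50 bases of a transcript in 17 of the 52 replication-dependent genes and in 10 of the 12 variants.

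The other sequences that bear on the design are the mature microRNAs of the cluster, shown from RefSeq (GRCm38.p6, chromosome 6) with the seed, bases 2 to 8, in capitals. A messenger RNA is a candidate target where its 3′ untranslated region holds the complement of the seed.
mmu-miR-96-5p: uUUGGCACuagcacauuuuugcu
mmu-miR-182-5p: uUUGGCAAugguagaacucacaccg
mmu-miR-183-5p: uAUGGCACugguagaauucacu

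No 2 of the 3 share the whole seed, but those of miR-96 and miR-182 differ only in the last base. The seeds of miR-96 and miR-183 differ only in the first base. The complements searched were GTGCCAA for miR-96, TTGCCAA for miR-182 and GTGCCAT for miR-183. None of the 64 members with an annotated 3′ untranslated region of at least 30 bases held any of the 3 heptamers, against 8.25%, 11% and 9.26% of the 19399 genes of the table with such a region. This says that these letters are not in those windows, which are short for most replication-dependent genes.

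Promoters of 74 of the 85 members were matched in RefSeq (GRCm38.p6), each as 250 bases before to 50 bases after the start of the gene. Histone promoters are known for a few short elements: the CCAAT box bound by NF-Y, the TATA box, the octamer bound by Oct1 in H2B genes, the H1 box of linker histone genes, and the CHR element of cell cycle genes. The letters searched on both strands were CCAAT for the CCAAT box, TATAAA for the TATA box, ATTTGCAT for the octamer, AAACACA for the H1 box and TTTGAA for the CHR element, with no overlap required or barred between them. The promoters of 4 genes that the results turn on are printed with every match in capitals: Hist1h1b (chr13:21780576-21780875, minus strand), Hist2h2bb (chr3:96269450-96269749, plus strand), Hist1h4n (chr13:21832148-21832447, minus strand) and the variant H2afz (chr3:137864237-137864536, plus strand).
Hist1h1b: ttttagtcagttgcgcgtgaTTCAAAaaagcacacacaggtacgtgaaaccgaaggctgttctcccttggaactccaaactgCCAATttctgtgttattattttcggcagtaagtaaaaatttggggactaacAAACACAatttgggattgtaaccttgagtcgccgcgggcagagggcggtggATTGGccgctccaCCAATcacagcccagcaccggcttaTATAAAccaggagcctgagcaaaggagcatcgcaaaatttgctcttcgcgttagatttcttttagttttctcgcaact
Hist2h2bb: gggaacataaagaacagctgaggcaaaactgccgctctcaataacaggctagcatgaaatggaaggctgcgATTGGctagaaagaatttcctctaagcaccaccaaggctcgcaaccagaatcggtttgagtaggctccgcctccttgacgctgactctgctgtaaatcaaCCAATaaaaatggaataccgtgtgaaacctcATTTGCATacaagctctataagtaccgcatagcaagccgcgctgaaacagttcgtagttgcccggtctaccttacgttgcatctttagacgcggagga
Hist1h4n: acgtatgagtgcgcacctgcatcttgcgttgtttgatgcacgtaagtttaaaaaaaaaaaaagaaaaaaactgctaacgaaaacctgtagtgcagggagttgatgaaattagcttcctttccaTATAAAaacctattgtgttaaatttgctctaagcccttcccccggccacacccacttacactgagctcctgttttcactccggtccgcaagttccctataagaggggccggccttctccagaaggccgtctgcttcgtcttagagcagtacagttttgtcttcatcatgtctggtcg
H2afz: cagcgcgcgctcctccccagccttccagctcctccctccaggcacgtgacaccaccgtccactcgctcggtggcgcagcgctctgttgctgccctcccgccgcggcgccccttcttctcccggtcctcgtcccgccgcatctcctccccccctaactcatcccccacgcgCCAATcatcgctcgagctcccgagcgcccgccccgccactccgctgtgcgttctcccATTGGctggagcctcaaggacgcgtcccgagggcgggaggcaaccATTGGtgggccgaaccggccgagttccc

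The letters CCAAT were in the promoters of all 6 H1, all 17 H2A, all 16 H2B and all 10 H3 replication-dependent genes that were matched, but in 3 of 12 H4 genes. Over all 27025 gene promoters of the table, 37.9% held them. The octamer was in 7 of 17 H2A and 6 of 16 H2B promoters and in 0 of 6 H1, 0 of 10 H3 and 0 of 12 H4 promoters, against 1.75% of all promoters. The H1 box was in 5 of 6 H1 promoters, against 7.14% of all. The letters TATAAA, at any position in the window, were in 35 of 61 replication-dependent promoters and 1 of 13 variant promoters, against 14.2% of all. The CHR letters were in 28 of 61 and 3 of 13, against 18.1% of all. The members thus shared promoter letters by class, and H4 stood apart from the other core histones in CCAAT. Windows of neighbouring H2A and H2B genes on opposite strands can overlap, as for Hist1h2ah and Hist1h2bk. The same match was then counted in both classes. These matches are a description of the letters and not of binding in these cells.

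**Figure D1:**
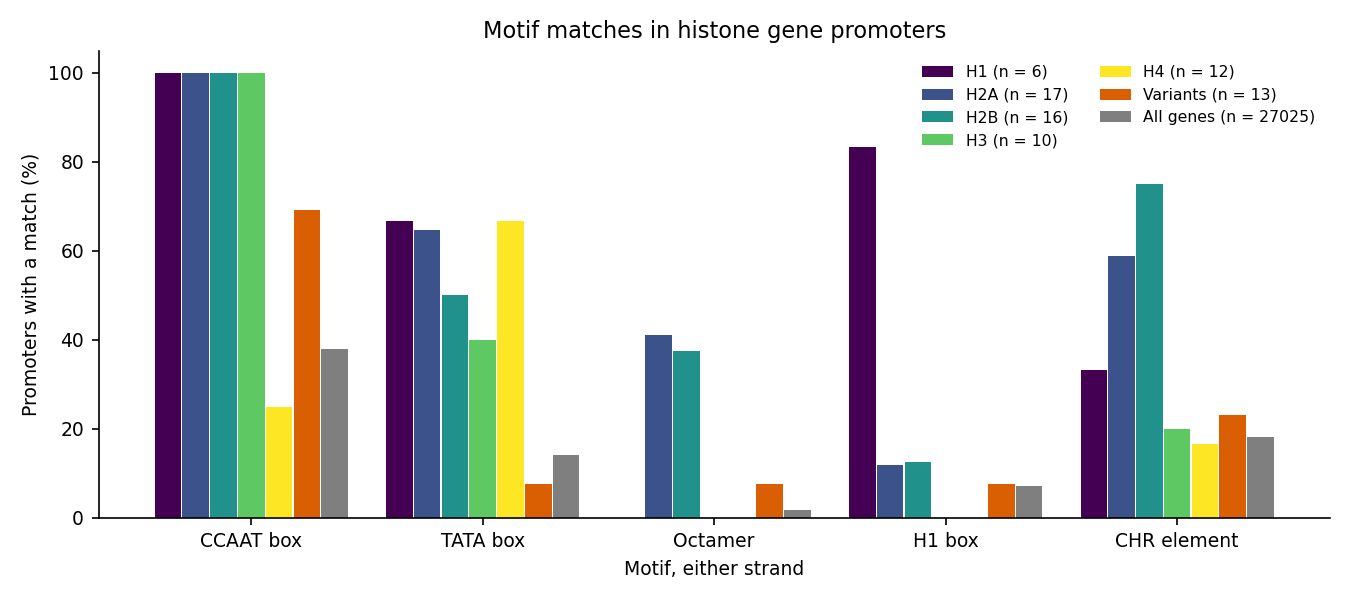
Share of promoters (percent, vertical axis) with at least 1 match to each motif on either strand, for replication-dependent genes by class, for the variants and for all genes of the RefSeq table, with the number of promoters in the legend. CCAAT reaches 100% in H1, H2A, H2B and H3 and 25.0% in H4, and the octamer is seen in H2A and H2B among the replication-dependent classes.

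The first comparison asked how histone transcripts differed between Th17 cells lacking miR-183/96/182 and wild-type cells. Replication-dependent histone transcripts, as captured after poly(A) selection, were 4.01 times as abundant in sum in the knockout. Their summed level was 227 and 279 CPM in the knockout libraries, against 61.9 and 64.5 CPM in the wild-type libraries (means 253 ± 36.6 and 63.2 ± 1.85 CPM, SD, n = 2 each). In each of the 5 classes both knockout libraries were above both wild-type libraries. H1 linker histones, which seal the DNA as it leaves the nucleosome, had 54.5 and 69.2 CPM in the knockout and 12.3 and 12.6 CPM in wild type, a ratio of 4.97. The core histones differed by ratios of 3.77 for H2A, 3.79 for H2B, 5.43 for H3 and 3.01 for H4.

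The variants differed by less. Their summed level was 2798 and 2435 CPM in the knockout and 1739 and 1727 CPM in wild type, a ratio of 1.51. Fewer or more cells in S phase and less or more histone RNA in each cell cannot be told apart in such bulk libraries. Nor can a difference in the share of replication-dependent transcripts with a poly(A) tail, since poly(A) selection was part of library preparation.

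**Figure D2:**
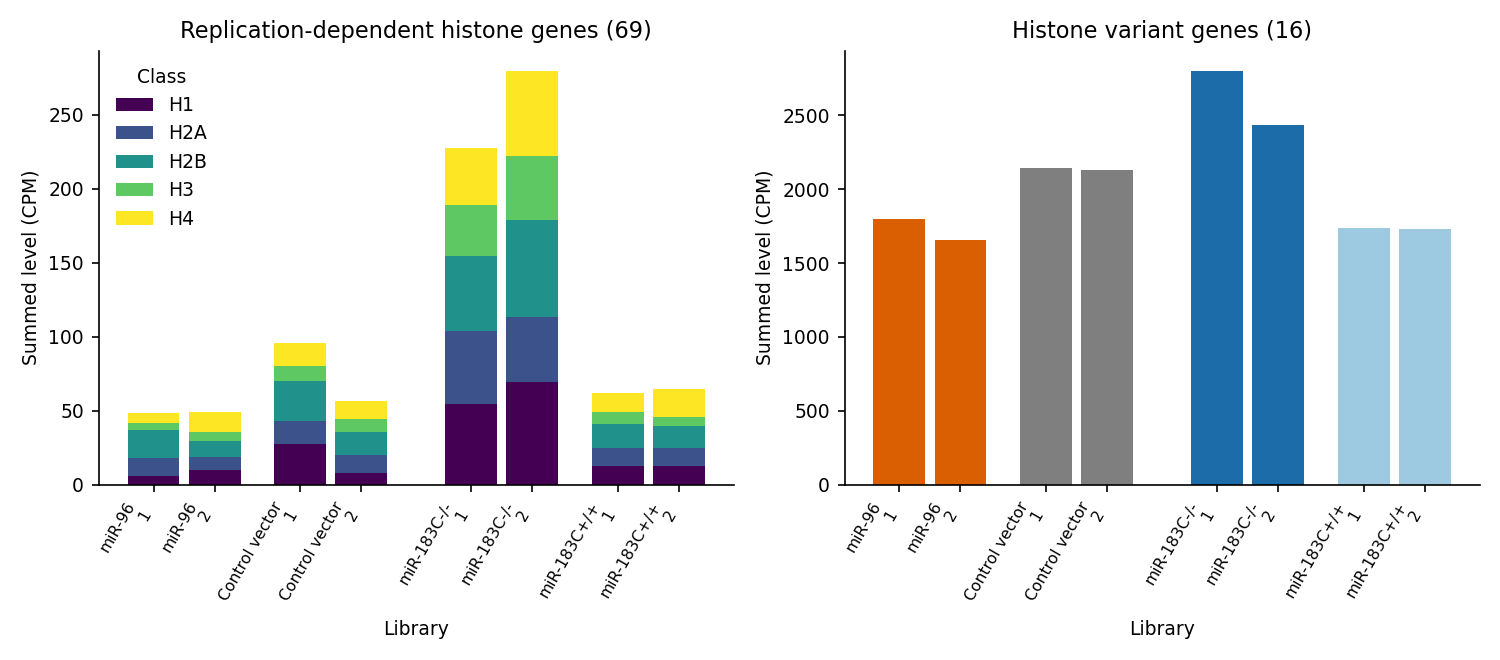
Summed level (CPM, vertical axes from 0) of the 69 replication-dependent genes, stacked by class, and of the 16 variants in each of the 8 libraries. The knockout libraries stand at 227 and 279 CPM for replication-dependent genes, above the 6 others, which lie between 48.2 and 95.6 CPM.

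Near-identical copies make single replication-dependent genes hard to count, and in each library between 34 and 53 of the 43 to 63 with an estimate of at least 0.5 had one that was not whole, so that sums by class are given first. Of the 85 members, 79 had a count in some library and 6 had none (Hist1h2al, Hist1h2ba, H1fnt, H2afb1, H2afb2 and H2afb3). Both knockout libraries were above both wild-type libraries in 59 of the 79 and below them in 0, where 27.5% of all 16931 genes with a count had the knockout above. By kind, this held for 50 of 67 replication-dependent genes and 9 of 12 variants. The test ran on 52 members that passed the filter on low counts, 43 replication-dependent and 9 variants. However, 22 of the 43 passed it only through the knockout libraries, against 204 of all 11851 genes tested (1.72%), so counts over the tested members overstate how common the difference is among all of them and are given as a description.

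At an adjusted p under 0.05 (edgeR's quasi-likelihood F test, Benjamini-Hochberg adjustment over 11851 genes), 21 of the 52 members rose in the knockout and 0 fell, where 6.63% of all genes rose and 6.40% fell. These were 15 replication-dependent genes and 6 variants. At an unadjusted p under 0.05, 40 were higher, where 17.1% of all genes were. The median log2 fold change was 2.21 over the tested replication-dependent genes and 0.83 over the tested variants, against -0.00785 over all genes. The limit set by the filter holds for the first median too. Of the 43 genes behind it, 22 passed only through the knockout libraries, so it can overstate the difference and is a description. With wild-type library 1, knockout library 1 or wild-type library 2 left out, none of the members was called by edgeR (28, 40 and 26 were at an unadjusted p under 0.05), and 20, 0 and 1 of all genes were called then. Without knockout library 2, 17 were called, 14 of them among the 21, and those lost were Hist1h1c, Hist1h1d, Hist1h2bq, Hist1h2br, Hist1h3c, Hist2h2bb and Hist2h3c2. The ratio of the summed replication-dependent level stayed between 3.60 and 4.42 when 1 library was left out, and was 4.42 without knockout library 1, whose estimates were mostly not whole.

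**Figure D3:**
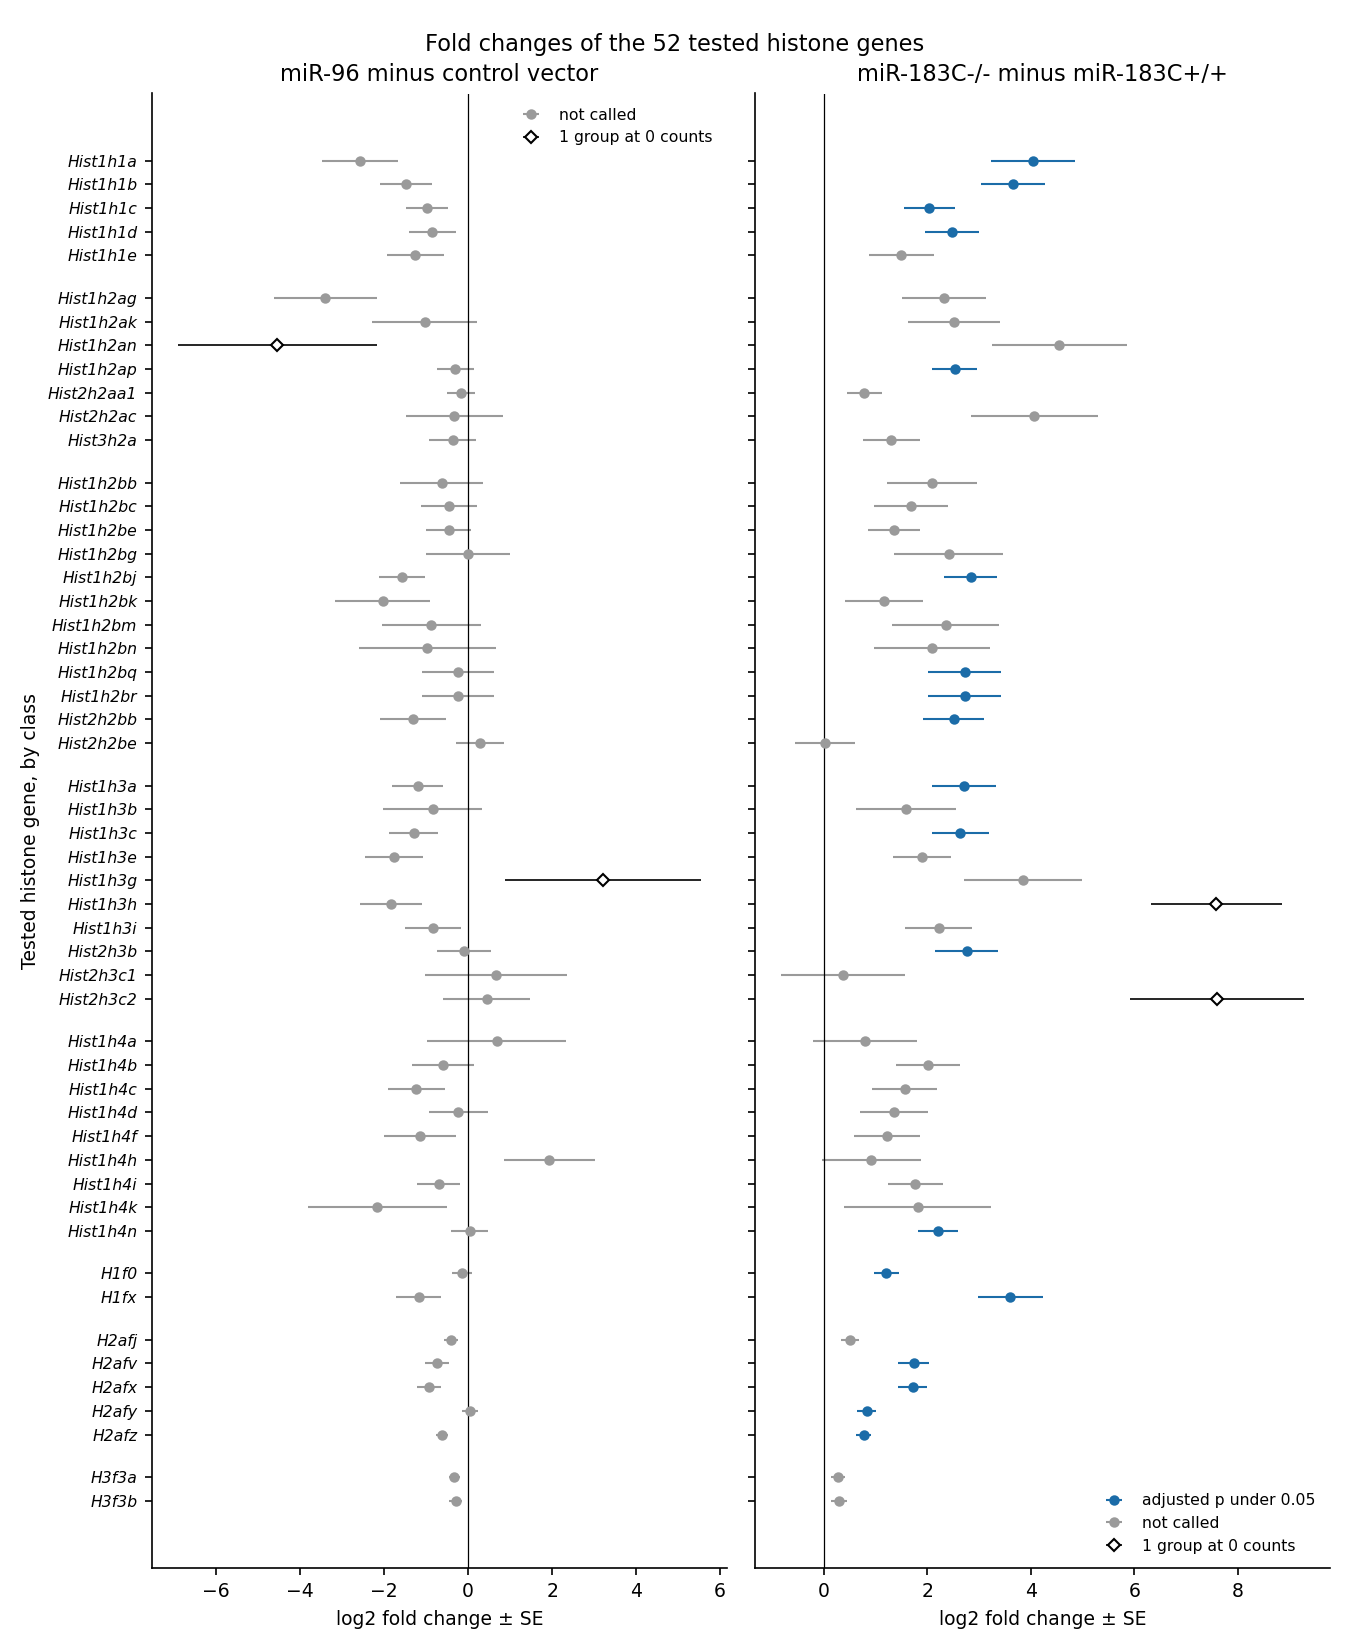
Log2 fold change with its standard error (horizontal axes) of the 52 tested histone genes, grouped by class down the page, replication-dependent genes above and variants below. In the knockout comparison all 52 values lie above 0 and 21 pass the test, of which Hist1h3h and Hist2h3c2 are drawn as open diamonds because wild type had 0 counts, so that their fitted values depend on the model and are no measure of size; in the miR-96 comparison none passes, and the diamonds there are Hist1h2an and Hist1h3g.

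Among linker histones, 4 of the 5 tested replication-dependent genes rose. Hist1h1b, which encodes H1.5 (chromosome 13, 21779883 to 21780625), had 11.1 and 11.3 CPM in the knockout and 0.975 and 0.793 CPM in wild type (log2 difference 3.65 ± 0.62 with its SE, edgeR adjusted p = 0.0246). Hist1h1a, which encodes H1.1 (chromosome 13, 23763666 to 23764406), had 4.73 and 6.67 CPM in the knockout and 0.487 and 0.198 CPM in wild type (4.05 ± 0.81, edgeR adjusted p = 0.0271). In both genes the knockout libraries were near each other and many times above wild type. Their wild-type levels, at most 0.975 CPM, rest on few counts, so the size of the ratio is imprecise.

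Hist1h1c, the gene of H1.2, had 22 and 23.5 CPM in the knockout and 5.59 and 5.48 CPM in wild type (2.04 ± 0.49, edgeR adjusted p = 0.0345). Hist1h1d, the gene of H1.3, had 9.10 and 14.4 CPM in the knockout and 1.68 and 2.47 CPM in wild type (2.47 ± 0.53, edgeR adjusted p = 0.0297). Hist1h1e, the gene of H1.4, did not pass the test, with 7.18 and 13.2 CPM in the knockout and 3.57 and 3.65 CPM in wild type (1.501 ± 0.63, edgeR adjusted p = 0.132). The knockout libraries were above wild type in all 3, and further apart from each other than the wild-type libraries were. Exons of Hist1h1e overlap those of Hist1h2be over 496 bases on the same strand, which makes both counts uncertain.

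Among H2A genes, 1 of the 7 tested rose. Hist1h2ap (chromosome 13, 21833026 to 21833507) had 7.002 and 9.44 CPM in the knockout and 1.38 and 1.51 CPM in wild type (log2 fold change 2.53 ± 0.43, edgeR adjusted p = 0.0246). Its value in knockout library 1 is uncertain, because the near-identical gene Hist1h2ao was given 93.5 counts in that library alone and next to none in the 7 others. Hist2h2aa1, whose counts were divided with its copy Hist2h2aa2 at a fixed ratio, had 8.71 and 13 CPM in the knockout and 5.87 and 6.78 CPM in wild type (0.78 ± 0.33, edgeR adjusted p = 0.137). Hist1h2ag and Hist1h2an had at most 3.60 CPM in any library. Hist1h2ag had 3.58 and 1.68 CPM in the knockout and 0.767 and 0.278 CPM in wild type (2.33 ± 0.81, edgeR adjusted p = 0.0827). Hist1h2an had 3.60 and 2.08 CPM in the knockout and 0 and 0.165 CPM in wild type (4.55 ± 1.30, edgeR adjusted p = 0.056). In all 4 the knockout libraries were above both wild-type libraries.

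Among H2B genes, 4 of the 12 tested rose. Hist1h2bj (chromosome 13, 22043214 to 22043676), which starts close to Hist1h2ag on the other strand, had 8.35 and 5.81 CPM in the knockout and 0.872 and 1.07 CPM in wild type (log2 fold change 2.85 ± 0.51, edgeR adjusted p = 0.0254). Hist2h2bb (chromosome 3, 96269752 to 96270132), whose promoter with its octamer is printed above, had 5.55 and 7.62 CPM in the knockout and 1.10 and 1.19 CPM in wild type (2.51 ± 0.59, edgeR adjusted p = 0.0334). Hist1h2bq and Hist1h2br were given the same estimate in every library, 3.45 and 3.71 CPM in the knockout and 0.233 and 0.746 CPM in wild type (2.73 ± 0.70, edgeR adjusted p = 0.04), so they amount to 1 measurement, whose call was also lost without control vector library 1 or 2. The groups did not overlap in any of these 4 genes.

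The other named H2B genes did not pass the test. Hist1h2bc, which has 2 exons in its annotated transcripts, had 10.4 and 11.3 CPM in the knockout and 3.75 and 2.93 CPM in wild type (1.69 ± 0.71, edgeR adjusted p = 0.133). Hist2h2be had 1.89 and 2.38 CPM in the knockout and 2.56 and 1.68 CPM in wild type (0.02 ± 0.59, edgeR adjusted p = 0.981). It was the tested member with the smallest difference, its groups overlapped, and its 3′ untranslated region of 2192 bases held a polyadenylation signal and no stem-loop.

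Among H3 genes, 5 of the 10 tested rose. Hist1h3a (chromosome 13, 23761853 to 23762386) had 4.51 and 4.41 CPM in the knockout and 0.901 and 0.481 CPM in wild type (log2 fold change 2.71 ± 0.61, edgeR adjusted p = 0.0317). Hist1h3c (chromosome 13, 23744973 to 23745602) had 5.60 and 7.68 CPM in the knockout and 1.37 and 0.743 CPM in wild type (2.64 ± 0.55, edgeR adjusted p = 0.0289). Hist2h3b (chromosome 3, 96268654 to 96269141) had 6.05 and 3.03 CPM in the knockout and 0.609 and 0.655 CPM in wild type (2.76 ± 0.60, edgeR adjusted p = 0.0306). These 3 genes had knockout libraries at several times wild type, with a wider gap between the knockout libraries in Hist2h3b.

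The other two had 0 whole counts in both wild-type libraries, so only a bound on their fold can be given, against a floor of 3 counts over the group. Hist1h3h had 3.44 and 1.72 CPM in the knockout, at least 15.8-fold higher (edgeR adjusted p = 0.0251), and Hist2h3c2 had 1.15 and 3.82 CPM in the knockout, at least 15.2-fold higher (edgeR adjusted p = 0.0324). Hist2h3c2 held a fixed ratio to its copy Hist2h3c1 in 7 of the 8 libraries, wild-type library 2 being the exception, and its adjusted p is uncertain for that reason. Hist1h3e had 4.04 and 7.36 CPM in the knockout and 1.54 and 1.47 CPM in wild type (1.89 ± 0.57, edgeR adjusted p = 0.0571), and Hist1h3g had 1.87 and 3.06 CPM in the knockout and 0 and 0.256 CPM in wild type (3.86 ± 1.14, edgeR adjusted p = 0.0605). Neither passed the test, although their groups did not overlap.

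Among H4 genes, 1 of the 9 tested rose. Hist1h4n (chromosome 13, 21831767 to 21832196) had 9.35 and 12.6 CPM in the knockout and 2.35 and 2.4 CPM in wild type (log2 fold change 2.21 ± 0.39, edgeR adjusted p = 0.0248). Hist1h4d had 5.63 and 11.9 CPM in the knockout and 3.30 and 3.59 CPM in wild type (1.36 ± 0.66, edgeR adjusted p = 0.178). Hist1h4i had 9.78 and 4.04 CPM in the knockout and 1.76 and 2.26 CPM in wild type (1.77 ± 0.53, edgeR adjusted p = 0.0576). Wild-type libraries lay close together in all 3, and the knockout libraries differed by more than 2-fold from each other in Hist1h4d and Hist1h4i.

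Across classes, genes with and without an annotated stem-loop were both found among those that rose. Of 29 tested genes with an annotated stem-loop, 8 rose, with a median log2 fold change of 2.02. Of 6 whose annotated 3′ untranslated region held none, 4 rose, with a median of 2.73. Hist1h2bq and Hist1h2br, which amount to 1 measurement, are both among these 4, and their shared value is that median. The regions of Hist1h1a and Hist2h3b, also among the 4, are annotated at only 48 and 37 bases. A stem-loop past such an annotated end would be missed. Among those with a stem-loop, the median was 2.27 in 16 whose transcript ended within 100 bases of it and 1.56 in 13 whose transcript ran on further. These are descriptions over genes that had passed the filter, and the difference between the sets was not tested.

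Among the variants, 6 of the 9 tested rose in the knockout, and the H3.3 genes gave the smallest values. H2afx, which encodes H2A.X, the variant that is phosphorylated at DNA breaks (chromosome 9, 44334694 to 44336077), had 102 and 70.6 CPM in the knockout and 23.4 and 28.8 CPM in wild type (log2 difference 1.72 ± 0.29 with its SE, edgeR adjusted p = 0.0246). H2afv, which encodes the second H2A.Z protein (chromosome 11, 6427229 to 6444443), had 93.1 and 59.8 CPM in the knockout and 24.6 and 21.2 CPM in wild type (1.74 ± 0.29, edgeR adjusted p = 0.0246). H2afz, the main H2A.Z gene, which marks the first nucleosomes of active genes (chromosome 3, 137864487 to 137866922), had 602 and 495 CPM in the knockout and 323 and 319 CPM in wild type (0.77 ± 0.15, edgeR adjusted p = 0.0261). The knockout libraries were above wild type in all 3, and library 1 was the higher of the knockout pair each time.

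H2afy, the gene of macroH2A1, a variant with a large extra domain (chromosome 13, 56073619 to 56136361), had 648 and 507 CPM in the knockout and 319.8 and 330.1 CPM in wild type (0.83 ± 0.18, edgeR adjusted p = 0.0312). H2afj, the gene of H2A.J, did not pass the test, with 92.9 and 89.2 CPM in the knockout and 68.5 and 59.5 CPM in wild type (0.51 ± 0.17, edgeR adjusted p = 0.0769). Its groups did not overlap.

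Both tested linker variants rose. H1f0, the gene of H1.0, the linker histone of resting and differentiated cells (chromosome 15, 79028450 to 79030504), had 116 and 71.7 CPM in the knockout and 41.6 and 39.2 CPM in wild type (1.21 ± 0.24, edgeR adjusted p = 0.0267). H1fx, the gene of H1.10 (chromosome 6, 87980421 to 87981637), had 6.76 and 4.17 CPM in the knockout and 0.366 and 0.496 CPM in wild type (3.61 ± 0.63, edgeR adjusted p = 0.0248). Its exons overlap Gm5577 over 213 bases on the other strand, and no label or file says if counting used strand. H1fx had the largest log2 fold change of the tested variants, but its wild-type levels rest on few counts, so the size of that value is imprecise.

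H3f3a and H3f3b encode the same protein, H3.3, which replaces H3 outside replication. H3f3a had 479.9 and 498 CPM in the knockout and 398 and 411 CPM in wild type (0.27 ± 0.14, edgeR adjusted p = 0.204). H3f3b had 658 and 639.6 CPM in the knockout and 539 and 518 CPM in wild type (0.30 ± 0.16, edgeR adjusted p = 0.208). Neither passed the test, while the groups did not overlap in either gene. The 7 variants that were not tested had between 0 and 16 counts over all 8 libraries.

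Per length, 8 of the 9 tested variants stood above every replication-dependent gene. Over all 8 libraries the mean level was 225 CPM per kilobase of exon for H2afz, 187 for H3f3b, 119.6 for H3f3a, 65.5 for H2afy, 40.4 for H2afj, 33.4 for H2afx, 32.1 for H1f0 and 26.8 for H2afv, while H1fx was at 2.23. The highest replication-dependent values were those of Hist2h2aa1, at 12.3, and Hist1h4n, at 9.20 CPM per kilobase. Hist2h2aa1 held a fixed ratio of 30.09 to its copy Hist2h2aa2 in all 8 libraries, so that its level and rank depend on how the estimates were divided. These are levels of polyadenylated RNA, and with the longest annotated transcript as the length H2afz stood at 374 CPM per kilobase and stayed the highest.

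**Figure D4:**
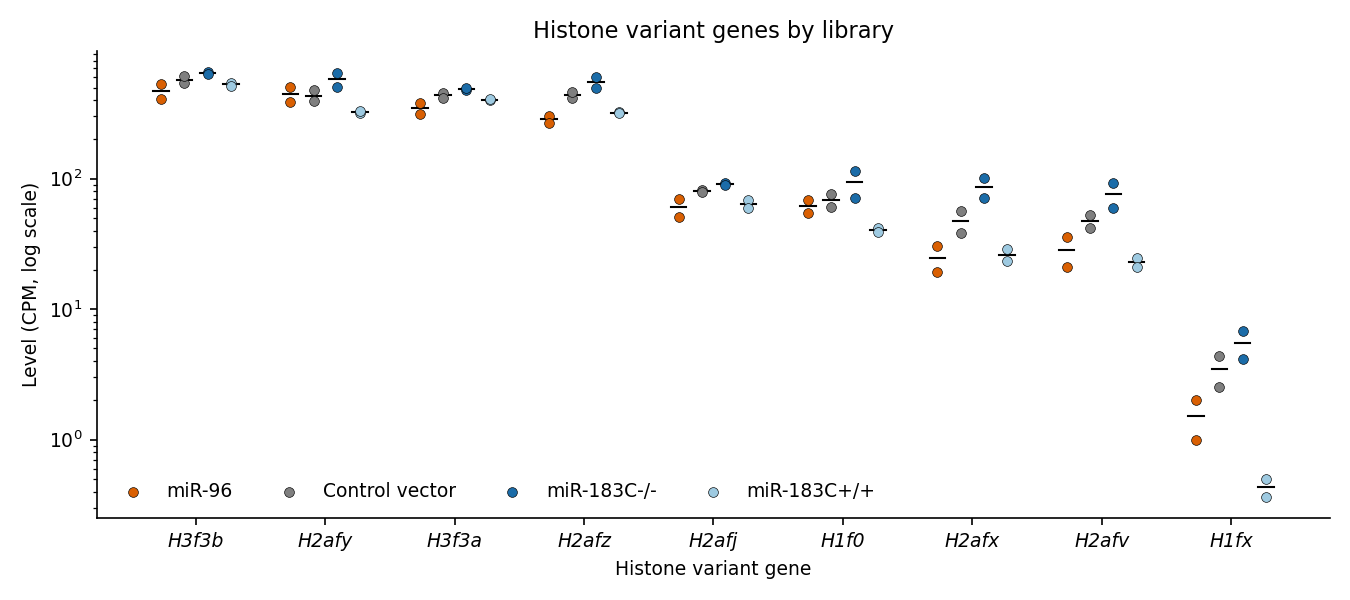
Level (CPM, log axis) of the 9 tested histone variant genes in each library, with the mean of 2 libraries as a short line. The knockout points lie above the wild-type points in all 9 genes, and the miR-96 points lie below the control vector points in all but H2afy and H1f0, where they overlap.

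The second comparison asked what overexpression of miR-96 did to the same genes. No member passed the test, and values leaned low. The summed level of replication-dependent genes was 48.2 and 48.9 CPM in the miR-96 libraries and 95.6 and 56.6 CPM with the control vector, a ratio of 0.638, and that of the variants was 1799 and 1656 CPM with miR-96 and 2142 and 2128 CPM with the control vector, a ratio of 0.809. Both miR-96 libraries were below both control vector libraries in each sum. The gap between the control vector libraries was large for H1, with 6.05 and 9.95 CPM in the miR-96 libraries and 27.1 and 8.02 CPM with the control vector, where the groups overlapped. They also overlapped for H2B, with 18.8 and 10.6 CPM with miR-96 and 26.8 and 15.7 CPM with the control vector. For H4 the values were 6.78 and 13.1 CPM with miR-96 and 15.2 and 12.1 CPM with the control vector, again with overlap. Only for H2A and H3 were both miR-96 libraries below both control vector libraries.

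Of the 52 tested members, 0 were called in either direction (edgeR, Benjamini-Hochberg adjusted p under 0.05), where 0.110% of all genes were. At an unadjusted p under 0.05, 11 members were lower and 0 higher with miR-96, where 4.00% of all genes were lower. Both miR-96 libraries were below both control vector libraries in 29 of the 79 members with a count, 21 replication-dependent and 8 variants, where 14.7% of all genes were, and above them in 3, where 16.3% of all genes were. DESeq2 called 1 member lower, H2afz, and edgeR without the filter on low counts called 3 lower, H2afv, H2afx and H2afz. The median log2 difference was -0.84 over the tested replication-dependent genes and -0.41 over the tested variants, but the first was -0.02 without control vector library 1.

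Among the variants, H2afz, H2afx and H2afv had the smallest unadjusted p-values. H2afz had 303 and 269.5 CPM with miR-96 and 418 and 466 CPM with the control vector (log2 difference -0.63 ± 0.15, edgeR adjusted p = 0.341, which ranged between 0.0172 and 1 over the alternatives tried). H2afx had 30.2 and 19.4 CPM with miR-96 and 38.6 and 57.0 CPM with the control vector (-0.94 ± 0.28, edgeR adjusted p = 0.402, between 0.000714 and 1 over the alternatives). H2afv had 35.5 and 21 CPM with miR-96 and 52.8 and 41.8 CPM with the control vector (-0.73 ± 0.29, edgeR adjusted p = 0.539). In all 3 the groups did not overlap, and these were also 3 of the 6 variants that rose in the knockout.

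The other tested variants were called by neither edgeR nor DESeq2 with all 8 libraries. H2afj had 70.0 and 50.7 CPM with miR-96 and 82.1 and 78.8 CPM with the control vector. H3f3a had 384 and 311 CPM with miR-96 and 453 and 417 CPM with the control vector. H3f3b had 531 and 408 CPM with miR-96 and 540.3 and 611 CPM with the control vector. The groups did not overlap in these 3, and their edgeR adjusted p-values lay between 0.569 and 0.627. H1fx had 2.02 and 0.995 CPM with miR-96 and 4.39 and 2.51 CPM with the control vector, the most negative value among the variants (-1.17 ± 0.54, edgeR adjusted p = 0.582). H2afy had 389 and 505 CPM with miR-96 and 475 and 393 CPM with the control vector (0.04 ± 0.18, edgeR adjusted p = 0.966). H1f0 had 54.2 and 69.3 CPM with miR-96 and 76.0 and 60.5 CPM with the control vector. Groups were apart in H1fx and overlapped in H2afy and H1f0.

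Among the replication-dependent linker genes, control vector library 1 was the highest of the 4 libraries every time. Hist1h1a had 0.183 and 0.249 CPM with miR-96 and 2.12 and 0.483 CPM with the control vector. Hist1h1b had 0.825 and 0.995 CPM with miR-96 and 3.92 and 1.06 CPM with the control vector. In both genes the miR-96 libraries were below the control vector, with the narrower gap to control vector library 2. Hist1h1c had 2.84 and 4.70 CPM with miR-96 and 11.3 and 3.4 CPM with the control vector. Hist1h1d had 1.36 and 1.46 CPM with miR-96 and 3.77 and 1.37 CPM with the control vector. Hist1h1e had 0.840 and 2.54 CPM with miR-96 and 5.92 and 1.70 CPM with the control vector. The groups overlapped in these last 3, and none of the 5 genes had an edgeR adjusted p under 0.486.

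Core histone genes were low in both transduced groups. Hist1h2bj had 0.685 and 0.442 CPM with miR-96 and 2.18 and 1.29 CPM with the control vector. Hist2h2bb had 0.0916 and 0.497 CPM with miR-96 and 0.549 and 0.870 CPM with the control vector. Hist1h3h had 0.494 and 0.274 CPM with miR-96 and 1.41 and 1.29 CPM with the control vector. Both miR-96 libraries were below both control vector libraries in these 3, with the narrowest gap in Hist2h2bb. Hist1h3a, Hist1h3c and Hist1h3e gave the same picture. Hist1h3a had 1.11 and 0.394 CPM with miR-96 and 1.92 and 1.64 CPM with the control vector. Hist1h3c had 1.03 and 0.381 CPM with miR-96 and 1.82 and 1.71 CPM with the control vector. Hist1h3e had 0.219 and 0.573 CPM with miR-96 and 1.499 and 1.18 CPM with the control vector. The groups did not overlap in these 3 either, and all 6 genes had an edgeR adjusted p of 0.49 or more.

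Hist1h4i was also lower in both miR-96 libraries, with 3.20 and 2.07 CPM there and 5.32 and 3.41 CPM with the control vector. Hist1h2ag had 0.055 and 0 CPM with miR-96 and 0.950 and 0.342 CPM with the control vector. Hist1h2an had 0 counts with miR-96 and 0.555 and 0 CPM with the control vector, which was at least 1.75-fold higher against a floor of 3 counts over the group. These low levels rest on few counts, with 1 count of Hist1h2ag over both miR-96 libraries.

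In other core genes the transduced groups overlapped. Hist1h2ap had 1.90 and 1.32 CPM with miR-96 and 1.83 and 2.31 CPM with the control vector. Hist1h4n had 1.19 and 1.31 CPM with miR-96 and 1.44 and 1.05 CPM with the control vector (log2 difference 0.03 ± 0.43, edgeR adjusted p = 0.988). Hist2h2aa1 had 6.70 and 4.34 CPM with miR-96 and 6.71 and 5.67 CPM with the control vector. The first 2 of these rose in the knockout and were near the control vector with miR-96. Hist1h2bc had 11.6 and 1.81 CPM with miR-96 and 13.2 and 5.70 CPM with the control vector. Hist1h4d had 0.622 and 3.46 CPM with miR-96 and 2.84 and 1.86 CPM with the control vector. Hist2h2be had 3.02 and 1.37 CPM with miR-96 and 2.35 and 1.26 CPM with the control vector. In these 3 the gap between the miR-96 libraries was wider than that between the group means.

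The remaining named genes were near the limit of detection in transduced cells. Hist1h2bq and Hist1h2br each had 0.214 and 0.438 CPM with miR-96 and 0.461 and 0.273 CPM with the control vector. Hist2h3b had 0.723 and 0.664 CPM with miR-96 and 0.874 and 0.544 CPM with the control vector. Hist2h3c2 had 0.299 and 1.00 CPM with miR-96 and 0.256 and 0.631 CPM with the control vector. Groups overlapped in all of them, and Hist1h3g, with 2 counts over the miR-96 libraries and 0 over the control vector libraries, had too few counts for a fold.

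The difference between the 2 contrasts was tested directly, as miR-96 minus control vector, minus the same for knockout and wild type. By edgeR's adjusted p under 0.05, 19 of the 52 members had a lower difference with miR-96 than with the knockout and 0 a higher one, where 4.45% of all genes had a lower one. These were 13 replication-dependent genes and 6 variants. Of the 52, 22 had passed the filter only through the knockout libraries, against 1.72% of all genes tested. The count of 19 therefore overstates how common the difference is among all members and is given as a description. In Hist1h1b the difference was -5.12 ± 0.87 on the log2 scale (edgeR adjusted p = 0.0182), in H2afx -2.65 ± 0.40 (edgeR adjusted p = 0.0146) and in H2afz -1.40 ± 0.21 (edgeR adjusted p = 0.0142). The count was 7 without control vector library 1, 10 without miR-96 library 2, and 0 (30, 35 and 33 at an unadjusted p under 0.05) without wild-type library 1, knockout library 1 or wild-type library 2.

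A single test for any difference among the 4 groups called 7 members by edgeR's adjusted p, where it called 1.05% of all genes: H2afx, H2afz, Hist1h1b, Hist1h2ap, Hist1h2bj, Hist1h4n and Hist2h2bb. In each of the 7 a knockout library was the highest of the 8. This test also takes in the difference between transduced and untransduced cells, and the count was 30 with DESeq2 and 47 without the filter. The limit set by members that passed the filter only through the knockout libraries holds here too.

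Genes that serve the histones did not move as one with them. For the gene lists here and below, the shares to compare with are those of all genes in the knockout, of which 6.63% rose and 6.40% fell. Of 20 tested genes for the transcription and 3′ processing of histone messenger RNA, E2f2, a transcription factor of the G1 to S passage, rose in the knockout (log2 fold change 1.10, edgeR adjusted p = 0.0272) and Npat, the coactivator of histone gene transcription, fell (-0.66, edgeR adjusted p = 0.0334). Npat had 58.9 and 67.8 CPM in the knockout and 99.4 and 100.2 CPM in wild type, so that its groups differed in the direction opposite to the histone genes. The median of that list was -0.01. Of 30 tested histone chaperones and loading factors, Asf1b (0.93, edgeR adjusted p = 0.0396), which hands H3 and H4 to new DNA, and Daxx (0.81, edgeR adjusted p = 0.0269), which loads H3.3, rose, while the transcription elongation chaperone Supt6 (-0.65, edgeR adjusted p = 0.0309) and the importin Ipo4 (-0.79, edgeR adjusted p = 0.0306) fell, with a list median of -0.01.

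Cenpa, the H3 variant of the centromere, rose in the knockout, with 138 and 79.7 CPM there and 18.8 and 17.7 CPM in wild type (log2 fold change 2.58 ± 0.38, edgeR adjusted p = 0.0246). With miR-96 it had 44.7 and 20.4 CPM, and with the control vector 77.4 and 59.5 CPM (-1.06, edgeR adjusted p = 0.476).

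The 30 tested S phase genes had a median log2 fold change of 0.24 in the knockout. Of the 30, 3 rose, where 6.63% of all genes did, and 0 fell. These were Tk1, thymidine kinase (1.13, edgeR adjusted p = 0.0411), Lig1, the ligase that joins new DNA (0.78, edgeR adjusted p = 0.048), and Ccne1, cyclin E1 (0.73, edgeR adjusted p = 0.0495). The list summed to 4690 and 4929 CPM in the knockout and 4421 and 4591 CPM in wild type, a ratio of 1.07, beside 4.01 for the replication-dependent histones. Pcna, the sliding clamp of DNA replication, was at -0.05 (edgeR adjusted p = 0.896).

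Of 20 tested mitosis genes, 16 rose in the knockout and 0 fell, with a median of 1.47. Examples are Ccnb2, cyclin B2 (2.43, edgeR adjusted p = 0.0246), and Plk1, the mitotic kinase (1.83, edgeR adjusted p = 0.0261), while Top2a and Mki67, those with the most counts, were at 0.83 and 0.91 and did not pass the test. The others called were Ccnb1, Aurka, Aurkb, Bub1, Bub1b, Cdc20, Cenpe, Cenpf, Kif20a, Birc5, Ube2c, Tpx2, Nusap1 and Ccna2, at 1.15 to 1.75. With miR-96 no gene of these lists was called by edgeR at an adjusted p under 0.05, and the median was -0.55 for S phase and -0.96 for mitosis. The mitosis list summed to 4093 and 3092 CPM in the knockout and 1646 and 1608 CPM in wild type, and to 2347 and 1096 CPM with miR-96 and 2875 and 3433 CPM with the control vector. The S phase list summed to 4129 and 2725 CPM with miR-96 and 4036 and 5662 CPM with the control vector, so that its groups overlapped. The part of cell cycle stage in the histone results was not tested.

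**Figure D5:**
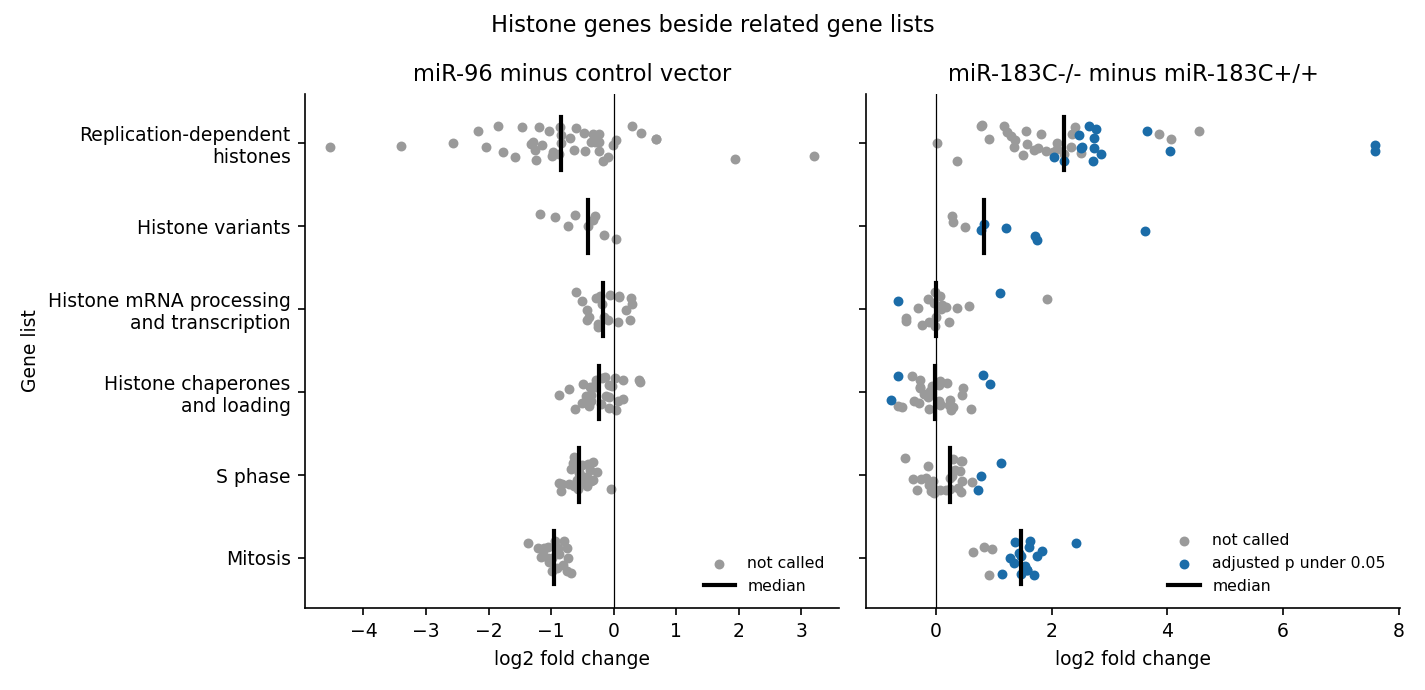
Log2 fold changes (horizontal axes) of single genes as points and the median as a bar, for the replication-dependent histones, the variants and 4 related gene lists. In the knockout comparison the medians are 2.21 for replication-dependent histones, 1.47 for mitosis, 0.83 for variants and 0.24 for S phase. The first can overstate the difference, since 22 of the 43 genes behind it passed the filter only through the knockout libraries. The points at the far right are Hist1h3h and Hist2h3c2, whose fitted values are no measure of size.

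Cell type genes differed beside the histones. Of 7 tested T cell genes, Cd3e rose in the knockout (log2 fold change 0.51, edgeR adjusted p = 0.047) and Cd28 fell (-0.70, edgeR adjusted p = 0.0327). In the knockout, 5 of 7 tested B and plasma cell genes fell (for example Jchain at -5.43, edgeR adjusted p = 0.0211), 2 of 6 genes of CD8 T and NK cells fell (Gzma and Prf1) and 4 of 8 Th17 genes fell (Il17a at -3.44, Il17f, Il1r1 and Batf). The CD8 T and NK list summed to 12.1 and 15.8 CPM in the knockout and 42.0 and 71.0 CPM in wild type, with its defining NK markers Klrb1c and Ncr1 at 0 in all libraries. The Th17 list summed to 254 and 286 CPM in the knockout and 668 and 1043 CPM in wild type, and to 937 and 1265 CPM with miR-96 and 638 and 416 CPM with the control vector. With miR-96 the B and plasma cell genes Jchain and Cd79a rose (7.67 and 4.07, edgeR adjusted p = 0.00829 and 0.0149). Myeloid genes summed to at most 26.5 CPM and red cell genes to at most 1.72 CPM in any library. The part of these cells in the histone results was not tested.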

How the data were processed

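The authors deposited 1 table of estimated counts per gene, named by symbol, with 1 column per library, all of which were matched to samples by the letter in each sample's description. Per the submitters' processing notes, the tools were edgeR, Partek, STAR 2.3.0 and bcl2fastq 2.16.0.10 and the build was mm10, with no roles given. The annotation and strand setting of counting are not given in the sources used here. Of 24453 lines, 27 whose symbol had turned into a date number were left out (at most 0.243% of a library). Estimates were rounded to whole counts and tested with edgeR 4.0.16 in R 4.3.3 (quasi-likelihood F test, TMM factors, filterByExpr with a minimum count of 10 and total of 15) on the 8 libraries together, modelled by group, over 11851 genes, with Benjamini-Hochberg adjustment. Levels in CPM were computed here from the unrounded estimates. Precision is limited by the total counts and by 2 libraries per group, and floors of 3 counts cover counting error only. Alternatives were other scaling factors, filters and tools (DESeq2 1.42.0), a block on the duplicate number, fits of 4 libraries and leaving out each library. Positions, exons and 3′ ends come from GENCODE M21 (GRCm38), which held all 85 members, and promoters and microRNAs from RefSeq.

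Members and gene lists were chosen with earlier results of these data known. Values in every library are given for members called in any of the 4 tests, for the 2 of each class with the highest mean CPM, and for those with the largest rise and fall in each contrast. Other lists are named by the genes called, otherwise by the 2 with the highest mean CPM.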

Additional observations from a re-analysis of the deposited data

Results flagged for a closer look

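In 19 members the effect of miR-96 overexpression differed from that of the knockout by a direct test of the difference (edgeR, adjusted p between 0.0142 and 0.0497), each time lower with miR-96 than with the knockout. The values are the log2 difference of the 2 contrasts. In the replication-dependent linker genes it was -6.62 for Hist1h1a, -5.12 for Hist1h1b, -3.02 for Hist1h1c and -3.33 for Hist1h1d. In H2A and H2B genes it was -5.73 for Hist1h2ag, -2.83 for Hist1h2ap, -4.42 for Hist1h2bj and -3.84 for Hist2h2bb. In H3 and H4 genes it was -3.91 for Hist1h3a, -3.94 for Hist1h3c, -3.66 for Hist1h3e, -9.43 for Hist1h3h, whose wild-type libraries had 0 counts so that the value depends on the model, and -2.18 for Hist1h4n. In the variants it was -1.36 for H1f0, -4.78 for H1fx, -0.92 for H2afj, -2.47 for H2afv, -2.65 for H2afx and -1.40 for H2afz. In 3 of the 19, Hist1h2ag, Hist1h3e and H2afj, neither contrast alone passed the test in the knockout or with miR-96. Of the 52 tested members, 22 had passed the filter only through the knockout libraries, so the number flagged overstates how common the difference is.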

How the results depend on the processing

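With other scaling factors, other filters, DESeq2 or the replicate block in place of the settings above, 19 of the 21 calls in the knockout held in every fit, and Hist1h3h and Hist2h3c2 were called in all but the one whose filter left them out. The number called was 37 without a filter and 35 with only the 4 libraries of the contrast, and 0 to 24 when 1 library was left out. With miR-96, 3 were called without a filter and 1 by DESeq2. For the difference of the contrasts, leaving out 1 library gave 0 to 15. For any difference among the groups the count was 47 without a filter, 30 by DESeq2 and 0 to 11 without 1 library. The median log2 difference with miR-96 was -0.61 without a filter and -0.61 by DESeq2 for replication-dependent genes (-1.02 to -0.017 without 1 library) and -0.38 and -0.37 for variants (-0.66 to -0.33). In the knockout the replication-dependent median was 2.09 without a filter, 2.07 by DESeq2, 2.09 with a mean of at least 10 counts as the filter, which was chosen after seeing the data, and 1.87 to 2.398 without 1 library. H2afy with miR-96 (-0.16 to 0.23) and Hist2h2be in the knockout (-0.26 to 0.34) changed sign without 1 library, neither being called. The labels do not say whether the duplicate numbers pair the libraries. Deviations from the group mean correlated at -0.221 between the transduced groups and 0.0953 between the genotypes. With 2 libraries per group these values cannot decide whether the libraries were paired. With the replicate block the knockout count was 21, all shared, and that of the difference was 19, 18 of them shared, Hist1h4n being lost. A crossed pairing in the block, chosen after seeing the data, called 28 members in the knockout and 26 for any difference. The cause of these shifts was not tested.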
